A study of Mus musculus with 3 samples.

Results

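The genes of the voltage-gated calcium channels, the voltage-gated sodium channels and the HCN channels were examined in ATAC-seq peak lists of mouse cortical projection neurons. Members were the mm10 RefSeq protein-coding genes whose symbol begins with Cacna, Cacnb or Cacng, or is Scn or Hcn followed by a digit, which gave 44 of 21887 genes. ATAC-seq marks open chromatin with a transposase that cuts and tags accessible DNA, and a peak is a stretch where the authors' peak caller found an excess of cuts. Callosal projection neurons (CPN), which link the cerebral hemispheres, were given by 2 libraries, CPN 1 and CPN 2. Corticospinal motor neurons (CSMN), which project from the cortex to the spinal cord, were given by 1 library. Each library came from 50000 sorted viable cells of mouse brain, and the labels name no treatment or genotype. Age, strain and the markers of the sort are not given in the sources used here, and none is assumed.

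The pore-forming subunits of calcium channels (Cacna1 genes) let calcium enter when the membrane depolarises, which drives transmitter release, dendritic spikes and signalling to the nucleus. Alpha2delta subunits (Cacna2d) and beta subunits (Cacnb) bring these pores to the membrane and tune them, and most of the gamma subunits (Cacng) serve as auxiliary subunits of AMPA-type glutamate receptors. Sodium channels (Scn genes ending in a) start and carry the action potential from the axon initial segment, with beta subunits (ending in b) beside them. HCN channels open on hyperpolarisation and carry the current Ih, which in deep-layer pyramidal neurons of the cortex shapes how dendrites sum their inputs.

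The sequences just upstream of listed starts show how differently built the entry points of these genes are, and they carry the results on start peaks given further on. Each is the 120 bases before a start listed in the RefSeq promoter table of GRCm38.p6 (mm10), read 5′ to 3′ on the gene's strand, with CG pairs and the letters TATAAA in capitals. The Scn2a, Scn1a and Scn8a genes encode the main sodium pores of cortical neurons, Cacna1d has 1 start with peaks and 1 without, and at Scn2b and Cacng6 a start peak was found in CPN and not in CSMN. A start peak lies within 1 kb of the start and need not cover the stretch printed. Those of Cacng6, at chr7:3423640-3423840 in CPN 1 and chr7:3423607-3423935 in CPN 2, lie upstream of its stretch.
Scn2a, chr2:65668566-65668685, strand +: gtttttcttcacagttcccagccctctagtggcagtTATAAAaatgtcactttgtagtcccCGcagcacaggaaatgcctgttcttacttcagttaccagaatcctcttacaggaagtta
Scn2a, chr2:65620649-65620768, strand +: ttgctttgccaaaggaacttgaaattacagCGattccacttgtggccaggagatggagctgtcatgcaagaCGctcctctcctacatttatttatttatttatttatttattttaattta
Scn1a, chr2:66440838-66440957, strand -: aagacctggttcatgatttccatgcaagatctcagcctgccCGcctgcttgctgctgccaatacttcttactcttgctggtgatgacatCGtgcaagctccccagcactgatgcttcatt
Scn8a, chr15:100870525-100870644, strand +: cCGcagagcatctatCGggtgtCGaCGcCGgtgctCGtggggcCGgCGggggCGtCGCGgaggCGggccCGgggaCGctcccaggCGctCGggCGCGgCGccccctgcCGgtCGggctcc
Cacna1d, chr14:30353487-30353606, strand -: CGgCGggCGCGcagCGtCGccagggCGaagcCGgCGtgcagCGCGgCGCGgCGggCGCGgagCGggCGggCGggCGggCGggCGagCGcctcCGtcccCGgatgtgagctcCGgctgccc
Cacna1d, chr14:30491157-30491276, strand -: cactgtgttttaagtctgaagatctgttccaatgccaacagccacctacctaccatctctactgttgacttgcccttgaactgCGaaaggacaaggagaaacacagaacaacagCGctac
Scn2b, chr9:45117756-45117875, strand +: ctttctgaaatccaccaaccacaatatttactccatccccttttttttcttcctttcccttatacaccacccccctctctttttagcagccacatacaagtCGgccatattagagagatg
Cacng6, chr7:3424542-3424661, strand +: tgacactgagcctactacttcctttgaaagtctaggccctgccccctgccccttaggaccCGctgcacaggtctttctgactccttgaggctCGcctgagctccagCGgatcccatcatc
The strongest start peak of any member lay at the first of these, the Scn2a start at position 65668686. The 120 bases printed for it held 1 CG pair and 43.3% G plus C. The 250 bases before the same start held 9 CG pairs and 53.2%, close to the medians over all listed starts, 10 and 55.6%. The Scn8a stretch held 21 CG pairs and the peak-bearing Cacna1d stretch held 26, against 2 at the Cacna1d start without a peak. Scn2b and Cacng6 held 1 and 3.

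The authors' lists held 134018 peaks in CPN 1, 158779 in CPN 2 and 98067 in CSMN, with 72.4%, 65.4% and 55.2% of them at a −log10 q of at least 5, called strong here. Each sort counts as a biological replicate per the labels, and because CSMN had 1 library, the cell types were not tested against each other. CPN 1 and CPN 2 gave the only spread between replicates. In sorted bulk libraries, fewer cells of a type with an open site and less opening per cell cannot be told apart. Overlapping peaks were merged into regions across the lists. A region was called CPN-only if CPN 1 and CPN 2 had it and CSMN did not, and CSMN-only if neither CPN library had it. Regions at marker genes did not follow the labels of these unequal lists. The 5 CSMN marker genes held 51 CPN-only and 13 CSMN-only regions, and 5 CPN marker genes held 35 and 12. CSMN-only regions made up 20.3% (Wilson 95% interval 12.3% to 31.7%) and 25.5% (15.3% to 39.5%) of both classes together. Over all genes this share was 32.5%, so CPN-only regions prevailed there too. Most regions of these classes at CSMN markers came from Sox5 (27 CPN-only and 10 CSMN-only) and Ldb2 (14 and 1). Starts with a peak in all 3 libraries were found at 3 of 5 markers of excitatory neurons, where 65% of all genes had one. They were also found at 3 of 5 astrocyte markers, 4 of 6 oligodendrocyte lineage markers, 2 of 5 microglia markers, 4 of 4 endothelial markers and 4 of 5 interneuron markers. The part of other cells in the results below was not tested.

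Counted over gene bodies plus 10 kb on each side, channel genes carried 640 peaks in CPN 1, 710 in CPN 2 and 376 in CSMN. CSMN lay below both CPN libraries, and its deposited list was the shortest. As a share of each list this was 0.478% (Wilson 95% interval 0.442% to 0.516%), 0.447% (0.416% to 0.481%) and 0.383% (0.347% to 0.424%), where all intervals cover counting error only. With each list reduced to its 98067 peaks of highest −log10 p, as many as CSMN had, the members held 414, 389 and 376 peaks, shares whose intervals overlapped (0.422%, 0.397% and 0.383%). In the full lists CPN 1 held more peaks than CSMN at 33 members and CPN 2 did so at 35, while CPN 2 held more than CPN 1 at 25. These are 75%, 79.5% and 56.8% of members, against 47.8%, 60.4% and 46.7% of all genes.

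**Figure D1:**
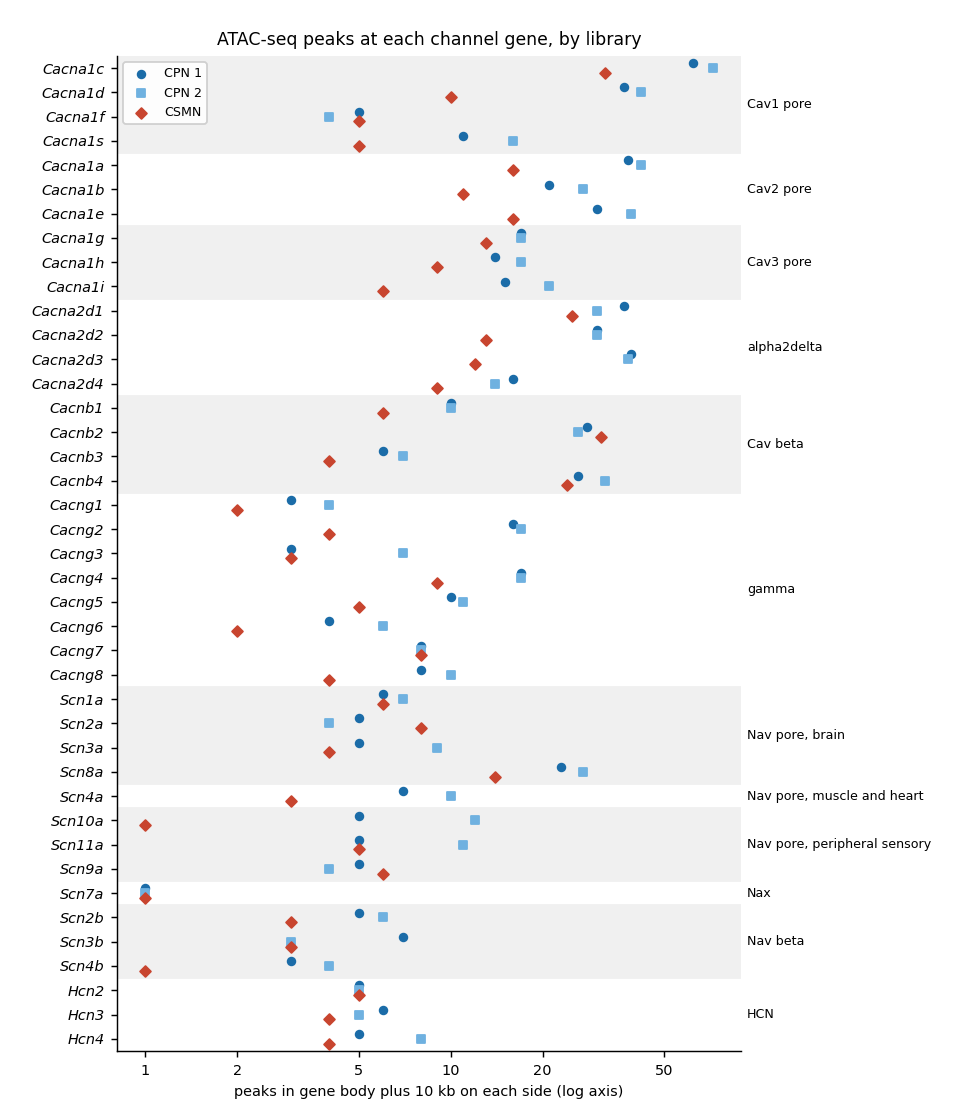
Peaks of each library in the body plus 10 kb of 41 channel genes (log axis), grouped by subunit class. CSMN (diamonds) lies left of both CPN libraries for most genes, and right of both at Cacnb2, Scn2a and Scn9a.

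Channel genes are long, and most of their regions lay in gene bodies, which also make up most of their windows. The split between body and flank was not counted over all genes. The median window was 117 kb, against 37.2 kb over all protein-coding genes, and the median gene held 13 regions against 4. Per 100 kb of window the median member held 11.1 peaks in CPN 1, 12.3 in CPN 2 and 6.18 in CSMN, against 7.04, 8.72 and 4.97 over all genes. Of the 952 regions at members, 779 lay in gene bodies away from the member's own start sites, 102 in the flanks and 71 at such a site. Starts of other genes held 28 of the 952. Among regions shared by all 3 libraries, 19.5% were at the member's own start. The 33.7% over all genes counts the start of any gene, so these shares are not measured alike and were not compared. Exons and introns were not distinguished. Across the 44 members, Spearman's rho between window length and the number of regions was 0.74 (0.62 over all genes), and between window length and regions per 100 kb it was −0.48 (0.10 over all genes). Members share their libraries in these figures, so they are a description.

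The densest member per length was Cacng4, an AMPA receptor gamma subunit, with 29.1 regions per 100 kb. At the other end stood Scn7a, the sodium-sensing channel Nax, with 1 region in 131 kb of window. Low values were also found at Scn9a with 3.43 regions per 100 kb, Scn1a with 3.68 and Scn2a with 5.40. Peak counts of the members in CPN 1 and CPN 2 had a Spearman's rho of 0.91 over the 44 genes, and CSMN gave 0.85 with CPN 1 and 0.76 with CPN 2.

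Of the 952 regions, 246 were in all 3 libraries, 195 were CPN-only and 91 were CSMN-only. A further 171 were in CPN 1 alone and 215 in CPN 2 alone, so either replicate had more regions of its own than CSMN did. CSMN-only regions made up 31.8% (26.7% to 37.4%) of the CSMN-only and CPN-only regions together, against 32.5% (32.04% to 32.97%) over all genes. With CPN 1 as the odd library this share was 92.9% at members and 85.9% over all genes, and with CPN 2 it was 91.1% and 92.01%. CSMN-only regions were weak, with 8 of 91 strong (8.79%), against 114 of 195 CPN-only regions strong in both libraries (58.5%) and 170 of 246 shared regions (69.1%). Over all genes these shares were 10.96%, 59.6% and 75.1%. CPN-only regions need a peak in 2 libraries and CSMN-only regions in 1, so these classes are not measured alike. Of member regions in 1 CPN library alone, 22.8% in CPN 1 and 16.3% in CPN 2 were strong, against 22.5% and 23.6% over all genes.

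More CPN-only than CSMN-only regions were found at 27 of 44 members (61.4%), where 44.2% of all genes with a region had this balance. The reverse held at 6 members (13.6%), against 16.9% of all genes, among them Cacna1f, Cacnb2, Cacnb4, Scn2a and Scn9a. No CSMN-only region was found at 16 members, against 62.3% of all genes with a region, and more CSMN peaks than in each CPN library were found at 4, against 7.09% of all genes. The share of all genes is not matched for gene length. The balance moved with the depth of the lists. With strong peaks alone it was 33 members toward CPN (75%) and 4 toward CSMN (9.09%), against 52.4% and 3.53% of all genes with a region. With lists of equal length it was 16 (36.4%) and 21 (47.7%), against 26.8% and 30.6%. Members thus had fewer ties than other genes in either direction. Counted by region, the CSMN-only share with strong peaks was 7.78% at members and 8.34% over all genes. With lists of equal length it was 52.8% (46.4% to 59.1%) at members and 53.7% over all genes.

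Under the full lists, the strong peaks and the lists of equal length alike, 16 members (36.4%) kept more CPN-only regions, where 26.3% of all genes with a region did. Among them were the pores Cacna1a, Cacna1d, Cacna1e, Cacna1s, Scn3a and Scn10a, the auxiliary subunits Cacna2d3, Cacnb1, Cacng4, Cacng5, Cacng6 and Cacng8, and the sodium channel betas Scn2b and Scn4b. Several of these rest on a difference of 1 region. The reverse was kept at Cacnb2 and Scn9a, 2 of 44 (4.55%), against 2.64% of all genes. These also rest on few regions. Scn9a differed by 1 in the full lists and with strong peaks and by 2 with equal lists. Cacnb2 differed by 1 with strong peaks.

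**Figure D2:**
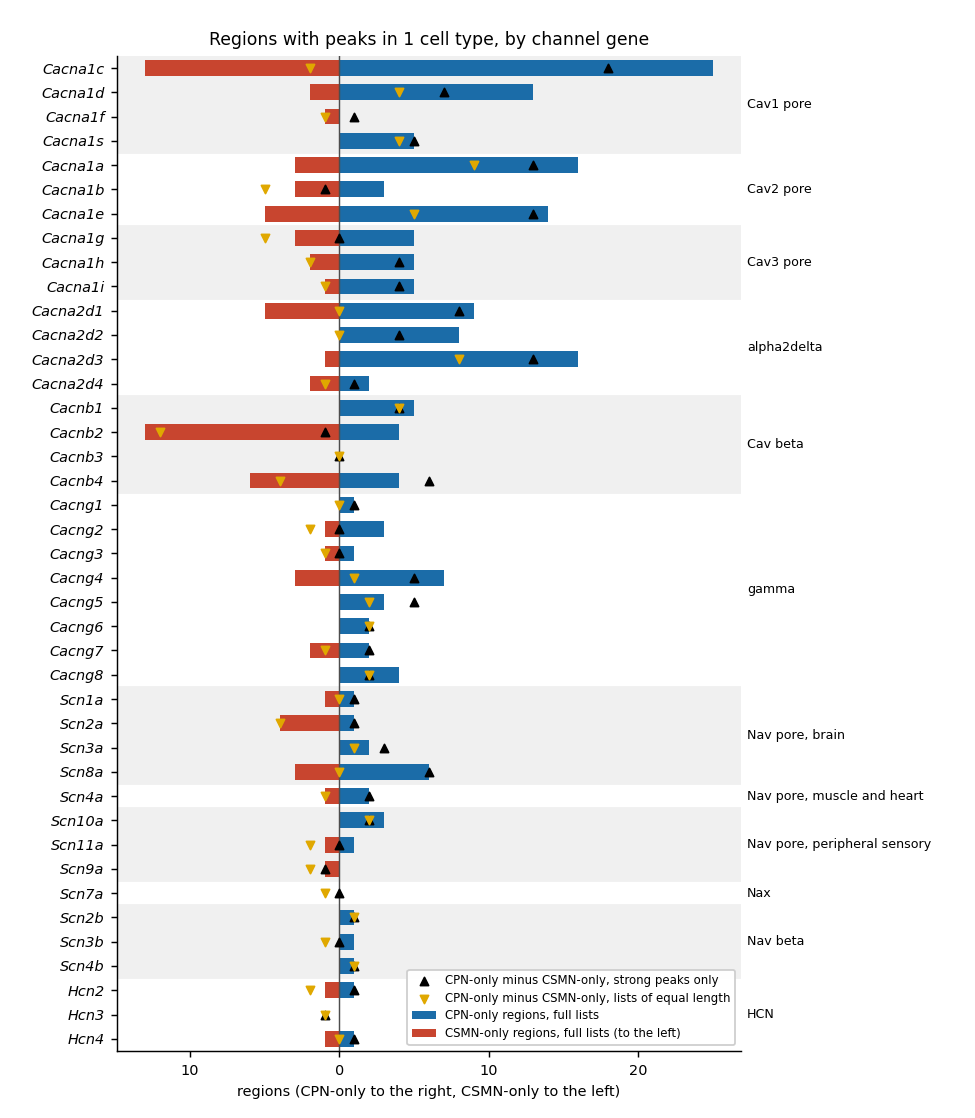
CPN-only regions (bars to the right) and CSMN-only regions (bars to the left) at each channel gene, with triangles for the difference under strong peaks alone and under lists of equal length. Cacna1a, Cacna1d, Cacna1e and Cacna2d3 stay right of 0 in every setting, Cacnb2 stays left, and the Scn2a difference changes side with strong peaks alone.

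The L-type calcium pores (Cav1), which couple calcium entry to gene expression, were led by Cacna1c, whose 102 regions were the most of any member. Cacna1c held 62 peaks in CPN 1, 72 in CPN 2 and 32 in CSMN, with 25 CPN-only and 13 CSMN-only regions. This balance of 12 toward CPN became 2 toward CSMN with lists of equal length. The start at position 119108495 of chromosome 6 carried peaks of fold 12.9, 10.8 and 6.31 in CPN 1, CPN 2 and CSMN, and the 2 other listed starts of the gene carried none. Fold here is the authors' enrichment at the peak summit, which describes a peak within its own list and is not a level comparable between lists.

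Cacna1c also held the strongest CPN-only region of all members, at chr6:119198479-119198912, with folds of 8.88 and 9.34 in CPN 1 and CPN 2. That region lies 1094 bp beyond the gene body, 2319 bp upstream of the listed start at 119196409 and inside the gene body of Dcp1b, an mRNA decapping factor. A second, at chr6:118739753-118740663 inside Cacna1c, had folds of 8.12 and 7.95. Cacna1c had a strong CSMN-only region as well, at chr6:118896894-118897156, with a fold of 3.04 in CSMN.

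Cacna1d, which opens at less depolarised potentials than Cacna1c, held 37 peaks in CPN 1, 42 in CPN 2 and 10 in CSMN. It had 13 CPN-only and 2 CSMN-only regions, and the difference of 11 was 7 with strong peaks and 4 with lists of equal length. Within 1 kb of the start at 30353486 printed above lay separate regions in all 3 libraries. That at chr14:30352084-30352943 had folds of 6.03, 5.88 and 3.12, and that at chr14:30353356-30354293 had 5.01, 4.91 and 3.38. The start at 30491156, poor in CG pairs, had no peak in any library. The pores of skeletal muscle and retina, Cacna1s and Cacna1f, had no peak within 1 kb of their starts in any library. At Cacna1s this is a matter of the limit. A region in all 3 libraries at chr1:136050529-136051803, with folds of 9.79, 10.3 and 5.82, ended just outside it, at the start of Ascl5. In their whole windows the genes held 11, 16 and 5 peaks at Cacna1s and 5, 4 and 5 at Cacna1f, in CPN 1, CPN 2 and CSMN.

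The presynaptic and dendritic calcium pores (Cav2) leaned toward CPN at 2 of 3 genes. Cacna1a, the P/Q-type pore of fast transmitter release, held 38 peaks in CPN 1, 42 in CPN 2 and 16 in CSMN. Its 16 CPN-only regions stood against 3 in CSMN, a difference of 13 that was 13 with strong peaks alone and 9 with lists of equal length. Ranked by the worst of its 3 list ranks (by −log10 p), the peak at a gene end of Cacna1a was second among the start or end peaks of members. Its folds were 15.4, 16.1 and 11.4, and Scn9a had higher folds in each list. This peak lay near position 84640251 of chromosome 8, and without strand in the gene table it cannot be told here whether that end is the start. The other end, at 84338631, had folds of 3.585 in CPN 1 and 3.447 in CPN 2 and no CSMN peak. Cacna1e, the R-type pore, held 30, 39 and 16 peaks with 14 CPN-only and 5 CSMN-only regions, and its difference of 9 was 13 with strong peaks and 5 with equal lists. Cacna1b, the N-type pore, held 21, 27 and 11 peaks with 3 regions of either kind, an even balance.

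The T-type pores (Cav3), which open near the resting potential and support burst firing, held between 19 and 26 regions each. Cacna1i held 15 peaks in CPN 1, 21 in CPN 2 and 6 in CSMN, with 5 CPN-only regions and 1 CSMN-only region. Its start peak ranked at 10.3% of the CPN 1 list, 12% of the CPN 2 list and 42.7% of the CSMN list, counted from the strongest. Cacna1g and Cacna1h also had 5 CPN-only regions each, with 3 and 2 CSMN-only. With lists of equal length the 3 genes together held 4 CPN-only and 12 CSMN-only regions, against 15 and 6 in the full lists, so their lean toward CPN did not hold there. At Cacna1h a peak near a gene end was present in CPN 2 only, with a fold of 2.92.

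The alpha2delta subunits, of which Cacna2d1 and Cacna2d2 bind gabapentin, held 35 CPN-only and 8 CSMN-only regions. Their CSMN-only share of 18.6% (9.74% to 32.6%) stood below that of all genes, with an interval that reached it, and was 38.7% with lists of equal length, where all genes gave 53.7%. Cacna2d3 had the largest difference of any member, with 39 peaks in CPN 1, 38 in CPN 2 and 12 in CSMN. It held 16 CPN-only regions and 1 CSMN-only region, a difference of 15 that was 13 with strong peaks and 8 with equal lists. The strongest CPN-only region of Cacna2d3, at chr14:29040663-29040968, had folds of 8.44 and 8.04 and lay 681143 bp downstream of the listed start.

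Cacna2d1 held strong regions of each kind. Its peaks numbered 37, 30 and 25, and a distal region in all 3 libraries at chr5:16309700-16309894 had folds of 12.7, 10.7 and 7.38. A CPN-only region at chr5:16004317-16004578 had folds of 7.62 and 8.08, and a CSMN-only region at chr5:15993373-15993632 had a fold of 3.21. Cacna2d2 held 30 peaks in either CPN library and 13 in CSMN, with 8 CPN-only regions and 0 CSMN-only. Cacna2d4, at 16, 14 and 9 peaks, had a peak near one gene end in CPN 1 (fold 8.90) and CPN 2 (8.75). A CSMN peak of fold 4.03 overlapped it but lay just outside the 1 kb limit, so the absence of CSMN there is a matter of the limit.

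The cytoplasmic beta subunits, which chaperone calcium pores to the membrane, were the calcium channel group with the highest CSMN-only share, 19 of 32 regions or 59.4% (42.3% to 74.5%). The 32.5% of all genes lay below that interval. Most of this came from Cacnb2: without it, 6 regions were CSMN-only and 9 CPN-only, a share of 40%. Strong peaks alone gave 26.3% with Cacnb2 and 8.33% without it, where all genes gave 8.34%. Lists of equal length gave 68.75% with it and 50% without it, where all genes gave 53.7%.

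Cacnb2 was the member with the largest difference toward CSMN. It held 28 peaks in CPN 1, 26 in CPN 2 and 31 in CSMN, so the shortest list had the most peaks, with 13 CSMN-only and 4 CPN-only regions. The difference of 9 toward CSMN was 12 with lists of equal length and 1 with strong peaks, where 4 CSMN-only regions stood against 3 CPN-only. Without CPN 2 it was 3, and without CPN 1 it was 8. The 3 strongest CSMN-only regions of all members lay inside this gene on chromosome 2. The strongest, chr2:14774968-14775132, had a fold of 5.03 in CSMN and lay 49050 bp upstream of the listed start at 14824092. The second, chr2:14657333-14657646, had a fold of 4.60 and lay 53098 bp downstream of the start at 14604306. The third, chr2:14703451-14703688, had a fold of 3.56. That first start had peaks of fold 13.3, 11.7 and 9.67 in CPN 1, CPN 2 and CSMN, among the 5 strongest start peaks of members by worst rank.

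Cacnb4 held 26, 32 and 24 peaks, with 6 CSMN-only and 4 CPN-only regions, but 6 more CPN-only than CSMN-only regions with strong peaks alone. Its start at 52558611 had folds of 18.4, 20.2 and 9.03. Of the shared regions away from starts and gene ends, those at the start of another gene left out, the strongest by its lowest fold was in Cacnb4, at chr2:52590462-52591528, with folds of 11.7, 11.7 and 8.45. Stronger ones lay at starts of neighbouring genes, such as chr14:30479221-30480032 inside Cacna1d and at the start of Dcp1a, with folds of 28.4, 27.7 and 13.7. Cacnb1 held 10, 10 and 6 peaks with 5 CPN-only regions and none in CSMN alone, and Cacnb3 had neither kind among its 9 regions.

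**Figure D3:**
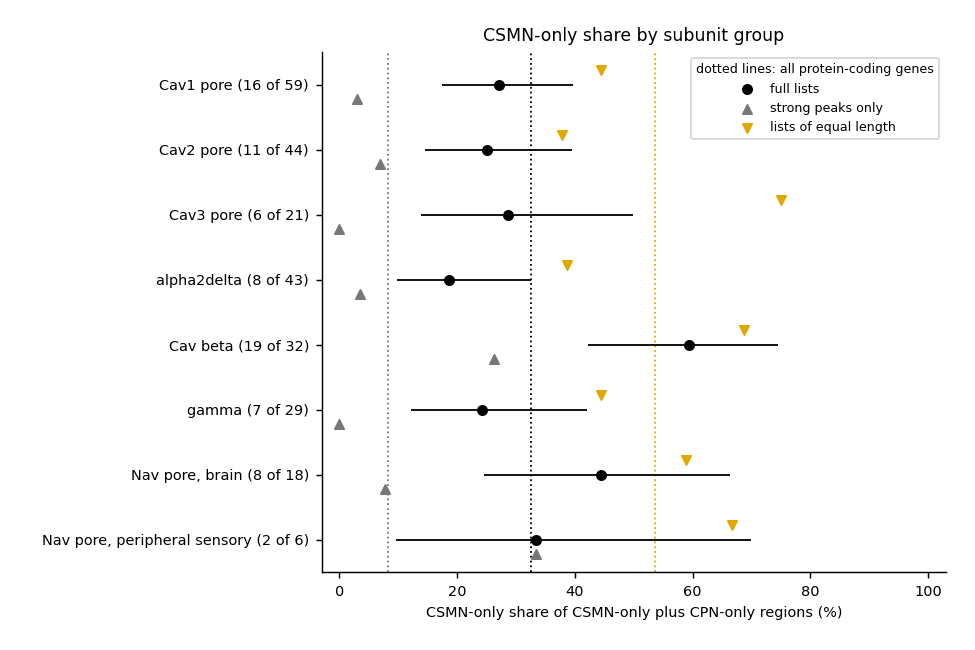
CSMN-only regions as a percentage of the regions found in 1 cell type (CSMN-only and CPN-only), by subunit group, with counts in brackets, Wilson 95% intervals for the full lists, and triangles for strong peaks alone and lists of equal length. Dotted lines give the same share over all protein-coding genes, 32.5%, 8.34% and 53.7%. The Cav beta group lies above them in each setting, as do the peripheral sensory Nav pores, with 2 CSMN-only and 4 CPN-only regions in the full lists.

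Of the gamma subunits, Cacng1 and Cacng6 belong to calcium channels and the other 6 are auxiliary subunits of AMPA receptors. The 6 receptor genes held 62 peaks in CPN 1, 70 in CPN 2 and 33 in CSMN, with 20 CPN-only and 7 CSMN-only regions. Cacng2 (stargazin) had the most regions of the group, 28, with 16, 17 and 4 peaks and a start peak of fold 17.9, 17.2 and 7.67. Cacng8 had no peak within 1 kb of its start in any library, but a shared region inside it at chr7:3410982-3411666 had a fold of 8.42 in CPN 1 and 6.18 in CSMN, with CPN 2 between them. Cacng7 held 8 peaks in every library. The calcium channel gamma Cacng6 held 4, 6 and 2 peaks, with a peak upstream of its start in CPN 1 (fold 3.35) and CPN 2 (4.57) and none in CSMN. Cacng1, known from skeletal muscle, had a peak near a gene end in CPN 1 (3.03) and CSMN (2.17) and none in CPN 2.

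The sodium pores of the brain, Scn1a, Scn2a, Scn3a and Scn8a, all had a peak at a start or gene end in every library. Together they held 8 CSMN-only and 10 CPN-only regions, a share of 44.4% (24.6% to 66.3%) whose interval holds the 32.5% of all genes. Scn2a, the pore of excitatory neurons early in life and of the proximal axon initial segment, held 5 peaks in CPN 1, 4 in CPN 2 and 8 in CSMN. Its start at 65668686 had folds of 24.3, 24.6 and 16.4, which put it within the strongest 2% of each list, at ranks 2403, 2908 and 1330. The other listed start, at 65620769, had folds of 3.24, 4.38 and 4.25.

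Inside Scn2a a CPN-only region at chr2:65690558-65691275, 21988 bp downstream of the strong start, had folds of 8.79 and 7.30 in CPN 1 and CPN 2 and no CSMN peak. CSMN had 4 regions of its own at the gene, against this 1 in CPN. With strong peaks alone the balance was 1 toward CPN in place of 3 toward CSMN. Scn8a, the pore of the mature distal initial segment and nodes of Ranvier, held 23, 27 and 14 peaks. Its start at 100870645 had folds of 9.05, 9.89 and 4.93, and a shared region at chr15:100983411-100984341 had 13.9, 13.7 and 7.12. Scn1a, the pore best known from inhibitory interneurons, held 6, 7 and 6 peaks, and Scn3a, an early developmental pore, held 5, 9 and 4.

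**Figure D4:**
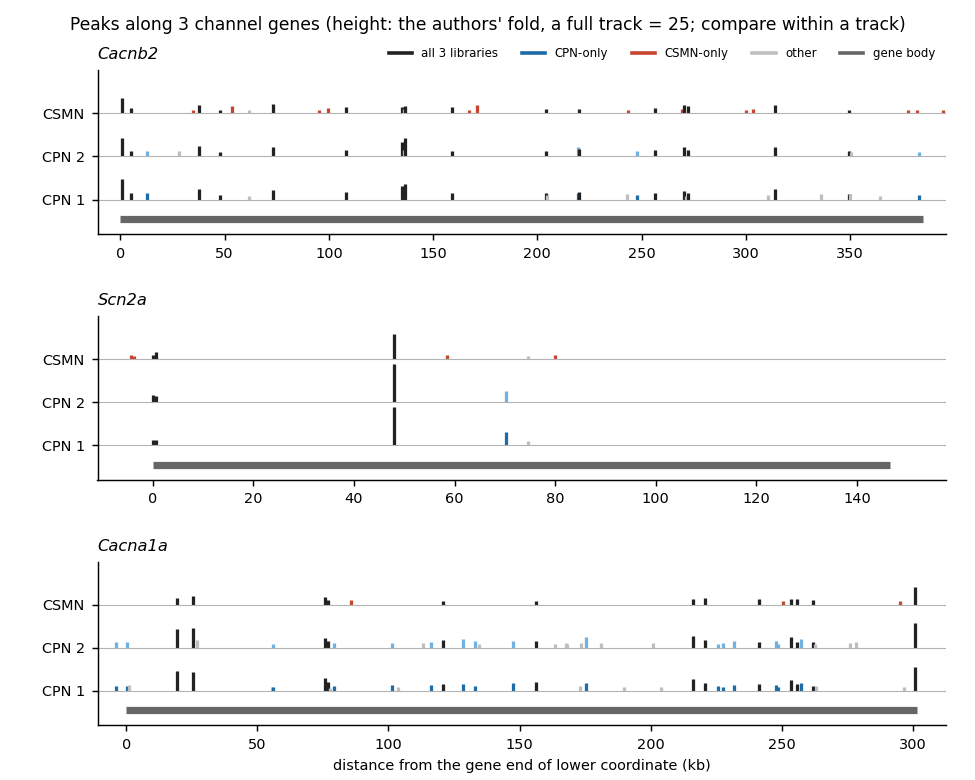
Peaks along Cacnb2, Scn2a and Cacna1a, by distance from the gene end of lower coordinate (kb), with 1 track per library and line height giving the authors' fold within that list. The strongest peak of Scn2a is black (all 3 libraries), the CSMN-only lines of Cacnb2 are low, and blue CPN-only lines run along Cacna1a.

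Sodium pores known from outside the brain were not free of peaks. Scn4a of skeletal muscle held 7, 10 and 3, with weak peaks near its start in CPN 2 and CSMN (−log10 q of 2.95 and 2.68) and none in CPN 1. Of the pores of pain-sensing neurons, Scn10a held 5, 12 and 1 peaks and none at its start, and Scn11a held 5, 11 and 5 with a start peak in CPN 2 alone (2.62). Scn9a held 5, 4 and 6 peaks and a start peak of fold 16.1, 16.4 and 12.9. Scn7a had 1 peak in each library, at its start, with folds of 2.78, 3.36 and 3.64.

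The sodium pores clustered on chromosome 2 held few regions for their length. The 5 genes (Scn3a, Scn2a, Scn1a, Scn9a and Scn7a) held 32 regions over 0.794 Mb of windows, and 15 of these were in all 3 libraries. The sodium channel beta subunits are cell adhesion proteins that modulate the pores. In the full lists Scn2b, Scn3b and Scn4b each held 1 CPN-only region and 0 CSMN-only. With lists of equal length Scn3b had 1 CSMN-only region, and counts this small show no trait of the group. Scn2b had 5, 6 and 3 peaks and Scn4b had 3, 4 and 1, in CPN 1, CPN 2 and CSMN. Scn3b had 7, 3 and 3 peaks and a strong peak at a gene end (folds 13.4, 10.4 and 9.29). At Scn2b the start peak had folds of 3.77 and 3.12 in CPN 1 and CPN 2, and CSMN had none.

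Of the HCN genes, Hcn2 held 5 peaks in each library, with 1 CPN-only and 1 CSMN-only region. Hcn3 held 6 peaks in CPN 1, 5 in CPN 2 and 4 in CSMN, with 0 regions of either kind. Hcn4, the pacemaker subunit of the heart, held 5, 8 and 4 peaks with 1 region of either kind, and its start peak had folds of 9.94, 9.30 and 6.56. At these genes the balance between the cell types was even in the full lists.

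A peak within 1 kb of a start, or of either gene end for the 12 members with no strand here, was found in all 3 libraries at 33 of 44 members (75%), where 65% of all genes had one. Of the 32 members with listed starts, 24 had such a start. Within 1 kb, peaks in both CPN libraries and not in CSMN were found at Cacna2d4, Cacng6 and Scn2b (6.82% of members), against 2.87% of all genes. No peak was found there in any library at Cacna1f, Cacna1s, Cacng8 and Scn10a (9.09%), against 27% of all genes. A peak lay just outside the limit at Cacna2d4 in CSMN and at Cacna1s in all 3 libraries. Over the 33 members the start peak reached a median of 8.75-fold in CPN 1, 8.77-fold in CPN 2 and 4.96-fold in CSMN, where the median of each list was 3.82, 3.68 and 2.86. The strongest 10% of the respective list held 13, 15 and 7 of these peaks. The list medians cover all peaks, and the 33 members were taken for having a start peak in every library. Start peaks of all genes were not measured this way, so no trait of channel genes can be read from these values. By worst rank the 5 strongest included those at Scn2a, Cacna1a, Cacnb4 and Cacnb2.

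**Figure D5:**
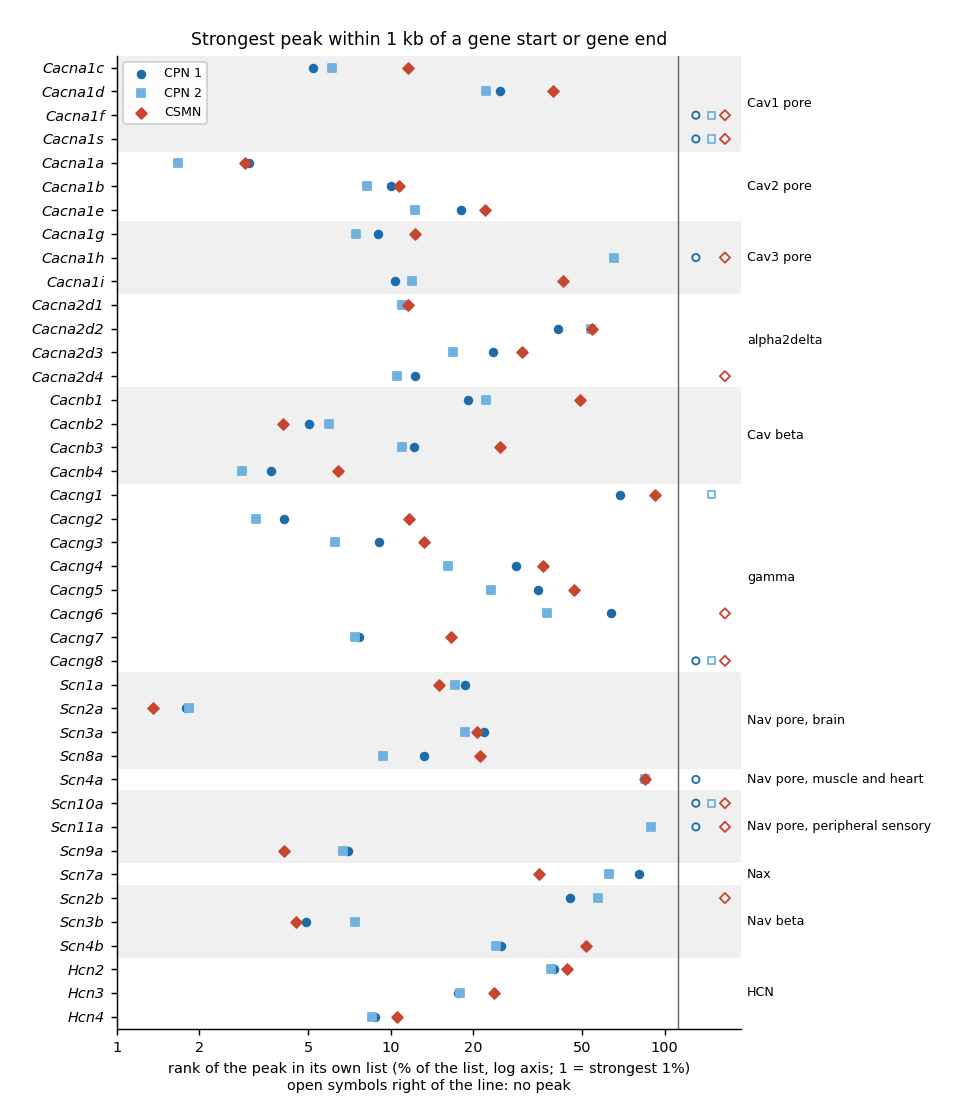
Rank of the strongest peak within 1 kb of a start or gene end, as a percentage of its own list (log axis, strongest at the left), for each channel gene and library. Open symbols at the right mark 11 genes with no such peak in at least 1 library, and Scn2a ranks within the strongest 2% in all 3 lists.

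Base composition followed the start peaks at members as it did elsewhere. Of the 43 listed starts of 32 members, 29 with a peak in all 3 libraries had a median of 16 CG pairs and 66% G plus C in the 250 bases upstream, against 16 and 60.8% for such starts of all genes. The 8 starts with no peak had a median of 3 CG pairs, and the 6 with a peak in 1 or 2 libraries had 3.5. The letters GGGCGG, bound by SP1, were found on either strand at 39.5% of member starts and 42.6% of all starts. TATAAA was found at 4.65% of member starts, those of Scn2a and Cacna1d, and at 11.6% of all. CAGATG was found at 11.6% and 12.4%, and TGACGTCA at 0 of 43 starts and 1.92%. The core of the RE1 element, bound by the neuronal gene repressor REST, matched 0 member starts and 0.0423% of all. Its left part CAGCACC matched 0 and 5.70%, and its right part GGACAG matched 11.6% and 18.9%, with the parts set 2 bases apart in the full core. The NRF1 motif matched 0 and 1.07%. These are matches of letters in short windows, not measured binding.

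Genes that work beside the channels had a CSMN-only share close to that of all genes. The 35 partners (axon initial segment scaffolds and FGF homologous factors, the sodium leak channel, HCN partners, presynaptic calcium partners, calcium sensors and stores) held 912 regions, with 168 CPN-only and 94 CSMN-only, a share of 35.9% (30.3% to 41.9%). More CPN-only regions were found at 18 of 35 and more CSMN-only regions at 6, where 44.2% and 16.9% of all genes with a region had these balances. A start peak in all 3 libraries was found at 33, where 65% of all genes had one. The partners' median of 19 regions per gene stood above the 4 of all genes, in a median window of 215 kb against 37.2 kb. Per 100 kb of window the medians were 13.4 and 10.4 regions. The 9 genes of the axon initial segment and FGF homologous factors held 63 CPN-only and 24 CSMN-only regions. The 14 calcium sensors and stores held 66 and 44.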

How the data were processed

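ATAC-seq peak lists of 2 CPN libraries and 1 CSMN library were analysed. Tools named in the submitters' processing notes are MACS2 2.2.7.1, bedtools 2.29.2 and BWA 0.7.17, and the build is mm10, with no role for each. How reads were filtered, duplicates treated, cuts shifted and peaks called is not given in the sources used here, nor are read totals. Peak names in each deposited list name 1 library, so peaks were taken as called per library.

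For each peak the authors deposited a score, a fold over background, a −log10 p, a −log10 q and the summit's offset within the peak. The deposited score was checked to equal 10 times the −log10 q to within 1. Depth is unknown beyond these values.

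Peaks overlapping by at least 1 bp were merged into 204313 regions, and those in gene bodies plus 10 kb were counted (Python 3.11.15, pandas 2.3.3). Gene positions came from RefSeq GRCm38.p6 (mm10). Listed starts came from its promoter table for 32 members, matched by symbol and gene ID. For the 12 others either gene end within 1 kb was used, so their peak may lie at the 3′ end. Counts were tested on simulated data, with 0 wrong, and checked against bedtools 2.31.1, with 0 regions and 0 windows differing.

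No p-value was computed, since CSMN had 1 library. Intervals are Wilson 95% intervals. The alternatives were strong peaks, lists of equal length, flanks of 0 and 50 kb, another overlap rule, assignment to 1 member, other start limits and leaving out a CPN library. The values described were, by rule, those of the member with most regions in each group, the 5 members with the largest difference each way, members with no peak or a start peak missing in some libraries, the 5 strongest start peaks, and the 5 strongest regions of each class. Cacna1d sequences were chosen after their values were seen. The individual results of 3 members are not reported here, though they stay in the totals. Members, gene lists and tests were chosen with earlier results of these data known.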

Additional observations from a re-analysis of the deposited data

How the results depend on the processing

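With strong peaks alone, members held 410, 411 and 192 peaks in CPN 1, CPN 2 and CSMN, 13 regions in CSMN only (7.78% of those in 1 cell type) and median densities of 6.91, 6.41 and 3.21 peaks per 100 kb. With lists of equal length they held 414 and 389 peaks in CPN 1 and CPN 2, 111 CPN-only regions, a share of 52.8%, which lies on the other side of an even split, 16 members with more CPN-only regions and 21 with more CSMN-only regions, and densities of 6.91 and 6.33. That setting keeps the CSMN list whole and takes weak peaks from the CPN lists. Flanks of 50 kb gave 370 regions in all 3 libraries. Leaving out either CPN library gave 368 to 436 CPN-only regions and a share of 21.2% to 22.03%, since 1 CPN peak then sufficed. Among the genes reported, the difference of CPN-only minus CSMN-only regions changed sign with strong peaks at Cacnb4 (6), Scn2a (1) and Cacna1f (1), with equal lists at Cacna1c (−2), Cacna1g (−5), Cacna1h (−2), Cacna1i (−1), Cacng2 (−2), Scn3b (−1) and Scn4a (−1), with 50 kb flanks, run for the 10 genes of largest difference, at Cacna1f (1), and without a CPN library at Cacnb4 (2 to 6); the cause was not tested. Without either CPN library it stayed toward CSMN at Cacnb2 (−8 to −3) and was 14 to 39 at Cacna1a, Cacna1c, Cacna1d, Cacna1e and Cacna2d3. The start count of 33 was 29 to 34 in the alternatives run on it, and 33 with the same start required in all libraries. Leaving out regions at starts of other genes gave 226 regions in all 3 libraries and 195 CPN-only and 91 CSMN-only regions. Both of these settings were chosen after seeing the data. No paired analysis was possible because CSMN has 1 library and no test was made. With a single CSMN library and unknown read depth, a missing CSMN peak shows no more than that none was called.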
